A study of Mus musculus with 6 samples.

Results

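The Ikaros family comprises 5 genes, Ikzf1 to Ikzf5, and all 5 were found by symbol among the 30037 rows of the deposited expression table that carry a name. The family was chosen by the difference between genotypes measured in these libraries, where Ikzf2 had the lowest knockout-minus-wild-type difference of all 15454 tested genes. The members' genotype differences are therefore given as a description, and calls of members as changed are not read as tests. RNA came from L-GMP cells, a progenitor-like leukaemic fraction, sorted from the marrow of mice, 8 to 10 weeks old, that carried acute myeloid leukaemia (AML). Wild-type leukaemia gave 3 libraries, and leukaemia lacking the arginine methyltransferase Prmt6 (Prmt6-/-) gave another 3. The leukaemia driver and the way Prmt6 was deleted (in all cells or in some) are not given in the sources used here, and no label says that libraries of the same genotype are from different mice, so any p-value reflects variation among these libraries alone, possibly of technical origin.

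Ikaros family proteins are zinc finger transcription factors. A group of fingers near the N terminus binds DNA, and a pair at the C terminus lets members associate with themselves and with each other. They recruit chromatin-modifying complexes, above all the nucleosome remodelling and deacetylase complex NuRD, and they are best known from lymphocyte development: Ikaros (Ikzf1), Aiolos (Ikzf3), Helios (Ikzf2) and Eos (Ikzf4) were all described in lymphoid cells, whereas Pegasus (Ikzf5) is the divergent member. Helios has also been studied in AML as a factor needed by leukaemia stem cells. Short forms of Ikaros that lack DNA-binding fingers can still associate with full-length partners. The deposited table holds 1 value per gene and library, so such forms could not be told apart, although GENCODE annotates 6 transcripts of Ikzf1 and 9 of Ikzf2.

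The coding sequences show how far the reads of one member could be mistaken for those of another. The first set, from the GENCODE transcripts on GRCm38, codes for the second finger matching the C2H2 pattern, which in Ikzf1 to Ikzf4 lies in the DNA-binding group. For Ikzf5 the finger closest to that of Ikzf2 is shown. Each has 63 bases, and capitals mark bases that differ from Ikzf2.
Ikzf2 (chr1:69570581-69570643, minus strand, exon 5): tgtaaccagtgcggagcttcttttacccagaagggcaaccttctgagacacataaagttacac
Ikzf1 (chr11:11754024-11754086, plus strand, exon 6): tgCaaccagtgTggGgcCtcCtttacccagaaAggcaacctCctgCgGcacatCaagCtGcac
Ikzf3 (chr11:98488940-98489002, minus strand, exon 5): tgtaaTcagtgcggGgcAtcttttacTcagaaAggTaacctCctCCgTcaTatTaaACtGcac
Ikzf4 (chr10:128640229-128640291, minus strand, exon 5): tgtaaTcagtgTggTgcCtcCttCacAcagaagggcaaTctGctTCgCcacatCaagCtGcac
Ikzf5 (chr7:131392501-131392563, minus strand, exon 4): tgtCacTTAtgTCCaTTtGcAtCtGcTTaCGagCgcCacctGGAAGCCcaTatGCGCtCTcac

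The second set codes for the first finger of the C-terminal pair, the part through which members associate. It is shown for Ikzf2, Ikzf1 and Ikzf5, because Ikzf5 is closer to Ikzf2 there than in the first set.
Ikzf2 (chr1:69538870-69538932, minus strand, exon 8): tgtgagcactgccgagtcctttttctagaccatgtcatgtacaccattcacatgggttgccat
Ikzf1 (chr11:11769411-11769473, plus strand, exon 9): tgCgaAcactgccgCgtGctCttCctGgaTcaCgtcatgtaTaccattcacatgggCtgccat
Ikzf5 (chr7:131391739-131391801, minus strand, exon 4): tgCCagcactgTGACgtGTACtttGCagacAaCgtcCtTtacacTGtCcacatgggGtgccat

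In the DNA-binding finger Ikzf1 shared 81.0% of bases with Ikzf2, Ikzf3 and Ikzf4 76.2% each and Ikzf5 47.6%. In the C-terminal finger the shares were 82.5% for Ikzf1 and 68.3% for Ikzf5. No run of bases identical to Ikzf2 in the fingers shown exceeded 14. Over all annotated transcripts, Ikzf2 shared no stretch of 31 bases with Ikzf1, Ikzf3 or Ikzf5, and 3 of its 11745 with Ikzf4. Reads of that length therefore tell the members apart almost everywhere. Ikzf5 is different with respect to a neighbour: 79.6% of its stretches also occur, on the opposite strand, in annotated transcripts of Pstk, a kinase gene that overlaps it on chromosome 7, and the sources used here do not say whether the counting kept strand. Its value may therefore hold reads of Pstk. Against all genes outside the family the share was 82.7%. The annotated Fgfr2 gene, on the same strand, also overlaps Ikzf5 by 21870 bases, and its part in that share was not measured.

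Ikzf2 (chromosome 1, 69531214 to 69687245) had deposited log2 values of 11.42, 11.46 and 11.48 in the wild-type libraries and of 6.58, 6.49 and 9.19 in the knockout libraries. The wild-type libraries lay close together, every knockout library lay below them, and the third knockout library stood well above the other 2. The mean was 11.46 ± 0.03 (SD, n = 3) in the wild type and 7.42 ± 1.54 (SD, n = 3) in the knockout, and the difference was -4.04 (SE 0.596). With the log2 differences turned back to a linear scale, the knockout libraries held 3.4%, 3.19% and 20.8% of the level at the wild-type mean. The authors' deposited table gives a log2 fold change of -4.06. Since these are bulk libraries, fewer cells that carry the transcript and less transcript per cell cannot be told apart, which matters for the intermediate library.

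**Figure D1:**
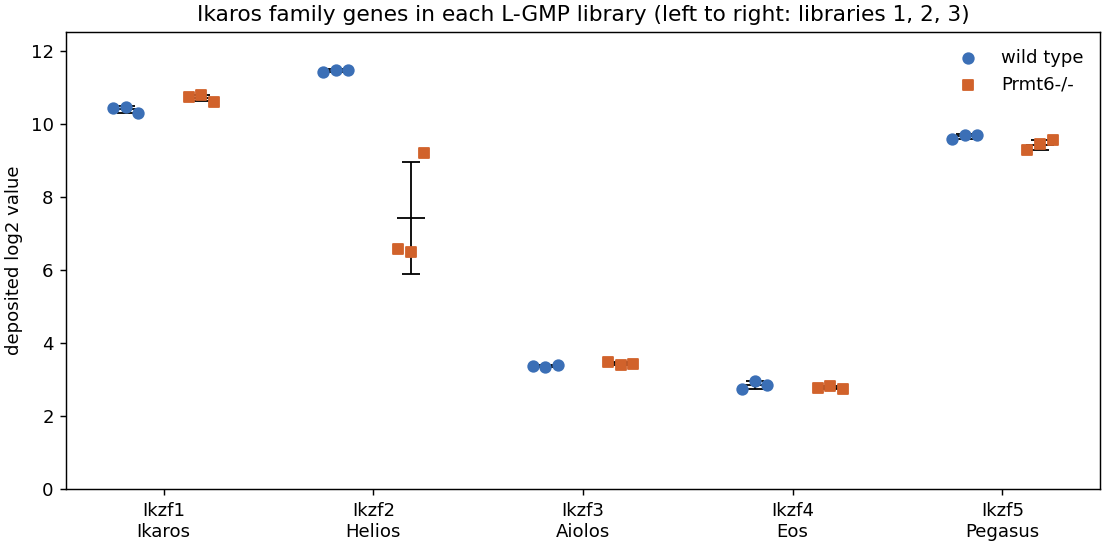
Deposited log2 values (y axis) of the 5 Ikaros family genes in the 3 wild-type (circles) and 3 Prmt6-/- libraries (squares); the short black line is the mean and the bars are 1 SD (n = 3). Ikzf2 is at 11.42 to 11.48 in the wild type, against 6.58, 6.49 and 9.19 in the knockout, and on this scale the means of the other 4 genes differ by at most 0.31; levels of different genes are not divided by length and are not to be compared with each other.

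The founding member Ikzf1 (chromosome 11, 11685003 to 11772926), a regulator of lymphoid and myeloid commitment and a tumour suppressor in lymphoid leukaemia, was slightly higher in the knockout. Its values were 10.44, 10.46 and 10.28 in the wild type, against 10.74, 10.77 and 10.60 in the knockout. The groups did not overlap, with a gap of 0.14 between the nearest libraries and a difference of 0.31 (SE 0.0711). In the direction of its difference Ikzf1 was thus opposite to Ikzf2 in all 3 knockout libraries, the third included.

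Ikzf5 (chromosome 7, 131388652 to 131410521) was slightly lower in the knockout. It stood at 9.57, 9.69 and 9.70 in the wild type, against 9.28, 9.45 and 9.54 in the knockout, a difference of -0.23 (SE 0.0783). The groups were separated by 0.03 only. The overlapping Pstk read 7.31, 7.53 and 7.53 in the wild type, against 7.67, 7.64 and 7.54 in the knockout, so that its difference of 0.16 had the other sign.

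Ikzf3 and Ikzf4 were low in every library. Ikzf3 (chromosome 11, 98464902 to 98546031), the partner of Ikaros in mature lymphocytes, read 3.37, 3.34 and 3.41 in the wild type, against 3.49, 3.41 and 3.43 in the knockout. Ikzf4 (chromosome 10, 128630843 to 128645991), known from regulatory T cells, read 2.74, 2.97 and 2.84 against 2.77, 2.83 and 2.74, and its groups overlapped. Their differences were 0.07 and -0.07, and that of Ikzf4 was -0.12 without wild-type library 1 and -0.01 without wild-type library 2; that of Ikzf3 was 0.04 without knockout library 1. For Ikzf3 the log2 fold change in the authors' deposited table is 1.00, and for Ikzf4 it is -1.49. The cause of the gap to the differences above was not tested, so neither gene can be said to be unchanged.

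All 5 members passed the filter on low values. Of these, 1 (Ikzf1) was higher and 1 (Ikzf2) lower past the threshold of limma, a linear model fitted across all genes (adjusted p under 0.05), where 15.0% of tested genes were higher and 18.0% lower, 33.0% together. The libraries of the genotypes did not overlap for 4 members, although for Ikzf3 they all but touched, against 47.4% of all tested genes. Nothing is read from these counts, or from any call of a single member, because the same contrast chose the family. Ikzf5 lay just outside the threshold with all libraries. It lay inside in 4 of 13 alternative analyses: without knockout library 3, where its difference was -0.29, with the stricter filter, with the replicate number as a block, and in the authors' deposited table, where its log2 fold change was -0.28.

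In the third knockout library Ikzf2 lay 2.66 above the mean of knockout libraries 1 and 2, which were 0.09 apart. On the log2 scale that was 54.0% of the way from them to the wild-type mean, whereas on a linear scale the library held 20.8% of the wild-type level. No other tested gene had as large an SD among the knockout libraries, where the median was 0.057, and in the wild-type libraries the highest SD of any tested gene was 1.34. The targeted gene did not show this pattern in the deposited values: Prmt6 read 7.82, 7.60 and 7.41 in the wild type, against 5.42, 5.46 and 5.48 in the knockout, a difference of -2.16. Its log2 fold change in the authors' deposited table is -7.66, so the size of its difference is uncertain, as is how far low knockout values can vary on this scale. Only 9 tested genes differed by at least 1 between knockout library 3 and the mean of the other 2, and a count of this size was not peculiar to that library, since knockout libraries 1 and 2 gave 11 and 12 and the wild-type libraries 14, 9 and 24.

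The other genes that were at least 1 higher in knockout library 3 were singled out after their values were seen. Mpo, the granule myeloperoxidase, read 13.34, 14.37 and 15.72 in the knockout libraries and 15.27, 15.19 and 16.29 in the wild type. The arginine deiminase gene Padi4 read 8.67, 8.62 and 10.23, against 10.92 to 11.30 in the wild type. Ngp and Camp, which encode secondary granule proteins, reached 10.13 and 9.61 in that library, from 8.35 and 8.80 and from 8.37 and 8.46 in the other knockout libraries. In the wild type Ngp read 8.88 to 9.10 and Camp 7.62 to 7.99, so knockout library 3 lay above the wild type for both. The granule protease gene Prss57, the granule membrane gene Nkg7 and the splicing-related gene Scaf1 completed the 8 higher genes, and the DNA repair gene Fancm was the 1 lower gene. Other granule protease genes did not stand apart in that library: Elane read 18.01, 18.04 and 17.98 in the knockout libraries, Ctsg 15.41, 15.34 and 15.30, and Prtn3 14.07, 14.10 and 14.20. The part of the higher genes in the Ikzf2 result was not tested.

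**Figure D2:**
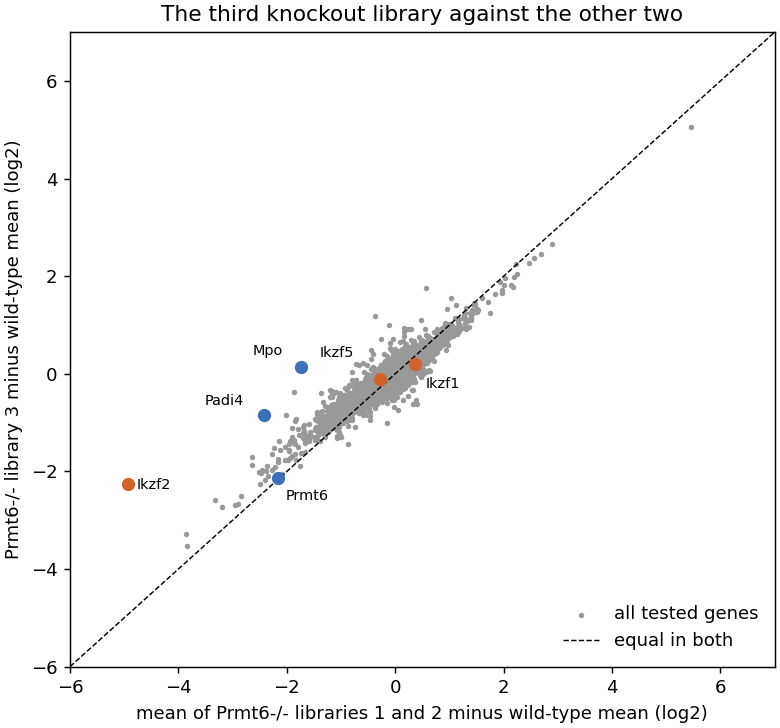
Each grey point is 1 of 15454 tested genes; the x axis is the mean of Prmt6-/- libraries 1 and 2 minus the wild-type mean and the y axis Prmt6-/- library 3 minus the same mean, both on the deposited log2 scale, with the dashed line where they are equal. Ikzf2 lies at -4.92 and -2.26, far above the line, as do Padi4 and Mpo, whereas Prmt6, Ikzf1 and Ikzf5 lie near it.

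A milder shift of library 3 towards the wild type was common among strongly lowered genes. The 225 genes past the threshold and at least 1 lower in the knockout were placed on the same log2 scale. In them that library stood a median of 20.2% of the way from the other 2 to the wild-type mean. The quartiles were 10.2% and 29.2%. Ikzf2 was among the 6 of these genes at 54.0% or more. The others included Nkg7 at 80.3%, whose call ended without wild-type library 1 or 3 or knockout library 1 or 2 (limma adjusted p from 0.054 to 0.0932), Gpnmb, a transmembrane glycoprotein gene of macrophages, at 70.9%, Padi4 at 65.3%, Prss57 at 58.0%, and the remaining row, at 57.2%, holds a number in place of a symbol. Without knockout library 3 the difference of Ikzf2 was -4.92, and without knockout library 1 or 2 it was -3.62 or -3.57.

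The genes whose profile over the 6 libraries was most like that of Ikzf2 were taken from 624 tested genes with a range of at least 1, by Pearson correlation. All of these points come from the same libraries, and any gene clearly lower in the knockout correlates with Ikzf2: the median correlation was 0.913, and 176 genes reached 0.95. The highest was Cbfa2t3 (r = 0.995), a corepressor gene of the ETO family, with 10.21, 10.16 and 10.30 in the wild type, against 8.89, 8.85 and 9.46 in the knockout. It was followed by the lectin receptor gene Clec4n (0.994), the endosomal sorting gene Vps18 (0.992), Ptprcap (0.992), which encodes a CD45-associated protein, the histone gene Hist1h2ai (0.992), and Prss57 (0.992). Rassf5, a Ras effector gene, Alox5ap, an activator of leukotriene synthesis, the chemokine gene Ccl4 and Padi4 followed at 0.991. The differences of these 10 genes ran from -0.80 for Vps18 to -1.89 for Padi4, well short of -4.04 for Ikzf2. For Clec4n the difference was -0.81, whereas the log2 fold change of the authors' deposited test is -2.31, and its call ended there (adjusted p = 0.0806). Among the family the correlation with Ikzf2 was 0.89 for Ikzf5, 0.29 for Ikzf4, -0.73 for Ikzf3 and -0.94 for Ikzf1, without the range requirement.

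**Figure D3:**
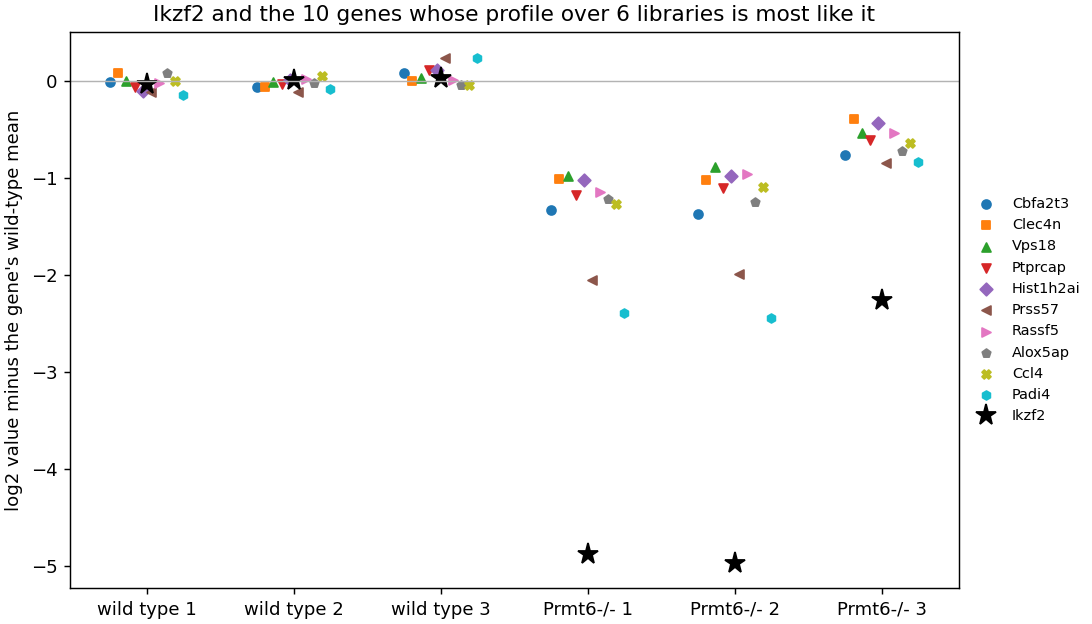
Log2 value minus the gene's own wild-type mean (y axis) in each of the 6 libraries (x axis) for Ikzf2 (stars) and the 10 genes with the highest correlation with it. Ikzf2 averages -4.92 in Prmt6-/- libraries 1 and 2 and lies at -2.26 in library 3. The 10 genes, picked for a profile like this, have smaller differences, and library 3 is their knockout library nearest to the wild type.

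Genes beside Ikzf2 on chromosome 1 gave no measure of its surroundings. Of 5 genes in the table whose start lies within 1 Mb, none reached the value of 1 in 3 libraries that a test required. The receptor gene Erbb4 read 0.54 to 0.57 and the sperm flagellum gene Spag16 0.87 to 0.90 over all 6 libraries. Around Ikzf1, 5 neighbours were tested and 3 rose, beside 15.0% of all tested genes: Zpbp by 0.23, Grb10 by 0.34 and Fignl1 by 0.17. The call of Grb10 ended without wild-type library 1 or 2 (limma adjusted p = 0.0516 and 0.0507). That of Fignl1 ended without wild-type library 1 or 2 or knockout library 1 or 2 (limma adjusted p from 0.0773 to 0.121). Of the 49 tested neighbours of Ikzf3, 4 were higher and 13 lower past the threshold, of the 49 of Ikzf4 4 and 8, and of the 14 of Ikzf5 3 and 3. Over all tested genes 15.0% were higher and 18.0% lower.

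NuRD, the complex through which Ikaros proteins act on chromatin, showed differences of at most 0.25 in its transcripts. All 13 subunit genes on the list were tested. Of these 2 rose and 2 fell, beside the 15.0% and 18.0% of all tested genes, and the median difference was 0.00, against 0.01 over all tested genes. The deacetylase gene Hdac1 read 11.67, 11.62 and 11.60 in the wild type, against 11.33, 11.37 and 11.43 in the knockout, so that it differed by -0.25 (SE 0.0506, limma adjusted p = 0.00486), or by -0.16 after quantile normalization. The histone chaperone gene Rbbp4 fell by 0.21 (limma adjusted p = 0.00566), a call that ended after quantile normalization (-0.12, adjusted p = 0.0577). Gatad2b rose by 0.19 and Mbd3 by 0.25, but without knockout library 2 neither passed (limma adjusted p = 0.0673 and 0.124), leaving the 2 that fell. The call of Gatad2b also ended without wild-type library 2 or knockout library 3 and after quantile normalization (limma adjusted p from 0.0539 to 0.0672). That of Mbd3 ended without wild-type library 1 or 3 or knockout library 1, without the filter and without the trend (limma adjusted p from 0.0574 to 0.139). The remodelling ATPase gene Chd4, the subunit most tied to Ikaros, differed by -0.25 and did not pass with all libraries (limma adjusted p = 0.0546). Lower subunit genes past the threshold numbered 3 with the stricter filter, with the replicate block, without knockout library 3 and in the authors' deposited test.

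Of 10 other corepressor genes 2 passed, both lower, beside 18.0% of all tested genes that were lower. The median was 0.07 over the list. Hdac7, a class IIa deacetylase gene, fell by 0.49 (SE 0.126, limma adjusted p = 0.0167), by 0.32 without wild-type library 3, and its call ended without knockout library 1 (adjusted p = 0.0618). The scaffold gene Sin3a fell by 0.19 (limma adjusted p = 0.0436), which failed the threshold when any library but knockout library 2 was left out (adjusted p from 0.0715 to 0.127). It also failed with the replicate number as a block (limma adjusted p = 0.0635), with intensity-dependent centring (0.0693) and without the filter (0.0668). After quantile normalization the difference of Sin3a was -0.11 (limma adjusted p = 0.207). The count was 1 without any single wild-type library or without knockout library 3, and 0 without knockout library 1. Ctbp1, a corepressor gene that partners Ikaros, differed by 0.30, or by 0.08 without wild-type library 3, and did not pass (limma adjusted p = 0.222).

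The ubiquitin ligase built on cereblon removes Ikaros and Aiolos in cells treated with thalidomide-like drugs, none of which the labels mention here. Of its 5 subunit genes 3 passed, each of them lower, with a median of -0.30 over the list. The receptor gene Crbn read 9.57, 9.39 and 9.53 in the wild type, against 9.05, 9.24 and 9.13 in the knockout, so that it differed by -0.36 (SE 0.0744, limma adjusted p = 0.00579). The scaffold gene Cul4b fell by 0.33 (adjusted p = 0.00979) and the RING finger gene Rbx1 by 0.30 (adjusted p = 0.0133), whereas the adaptor gene Ddb1 differed by 0.00 (SE 0.049). The share of all tested genes that were lower was 18.0%. The count stayed at 3 without any single library.

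Genes of the pre-B cell receptor and of antigen receptor recombination, classical targets of Ikaros in lymphoid precursors, were mostly near the bottom of the scale. Of 15 genes 10 stayed under 5 in every library, among them Igll1, Vpreb1, Vpreb2, Rag1, Rag2 and Dntt. Of the 12 tested, 3 passed, each of them lower, beside 18.0% of all tested genes that were lower. The median was -0.01 over the list. The receptor signalling gene Cd79b read 9.54, 9.65 and 9.51 in the wild type, against 8.38, 8.24 and 8.63 in the knockout, so that it differed by -1.15 (SE 0.0989, limma adjusted p = 6.52e-05). The immunoglobulin heavy chain gene Ighm fell by 1.53 (adjusted p = 0.00451) and the kinase gene Syk by 0.56 (adjusted p = 0.000413). The kinase gene Btk differed by 0.16 and did not pass (adjusted p = 0.0536). Without knockout library 3 the count was 6, with 2 higher, Btk among them, and 4 lower.

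Transcription factors that act beside the Ikaros family in lymphoid and progenitor cells moved in both directions. Of 16 tested, 3 rose and 4 fell, beside 15.0% and 18.0% of all tested genes, with a median of 0.04. Bcl11b, a T lineage commitment factor, read 7.02, 7.01 and 7.05 in the wild type, against 8.33, 8.14 and 8.02 in the knockout, a rise of 1.13 (SE 0.0837, limma adjusted p = 3.23e-05). The ETS factor gene Spi1, which encodes PU.1, fell by 1.02 (adjusted p = 4.31e-05), its relative Spib by 0.79 (adjusted p = 3.95e-05) and Irf8 by 0.70 (adjusted p = 0.000175). Ebf1 and Pax5, which define B lineage cells, were at 4.05 to 4.15 and 0.19 to 0.22 in the 6 libraries.

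The C/EBP factors of granulocyte differentiation and the partners of Hoxa9 form the programmes that have been studied beside Helios in AML. Of 10 genes 4 rose and 3 fell, beside 15.0% and 18.0% of all tested genes, with a median of -0.05. The count of 7 became 4 without wild-type library 2 or 3 or knockout library 3, and 3 without knockout library 2. Cebpd read 9.24, 9.36 and 8.96 in the wild type, against 7.98, 7.93 and 8.12 in the knockout, so that it differed by -1.18 (SE 0.104, limma adjusted p = 6.83e-05). Cebpb fell by 1.80 (adjusted p = 0.0248), but its wild-type libraries spread from 9.28 over 7.84 to 6.65. Its difference was -1.12 without wild-type library 1, and its call ended without wild-type library 2 or any single knockout library (adjusted p from 0.0591 to 0.0693). The homeobox gene Meis1 rose by 0.49 (adjusted p = 0.00179) and its relative Pbx3 by 0.33 (adjusted p = 0.00937). Hoxa9 differed by -0.05 (SE 0.0528) and Cebpa by -0.05 (SE 0.141), and neither passed.

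**Figure D4:**
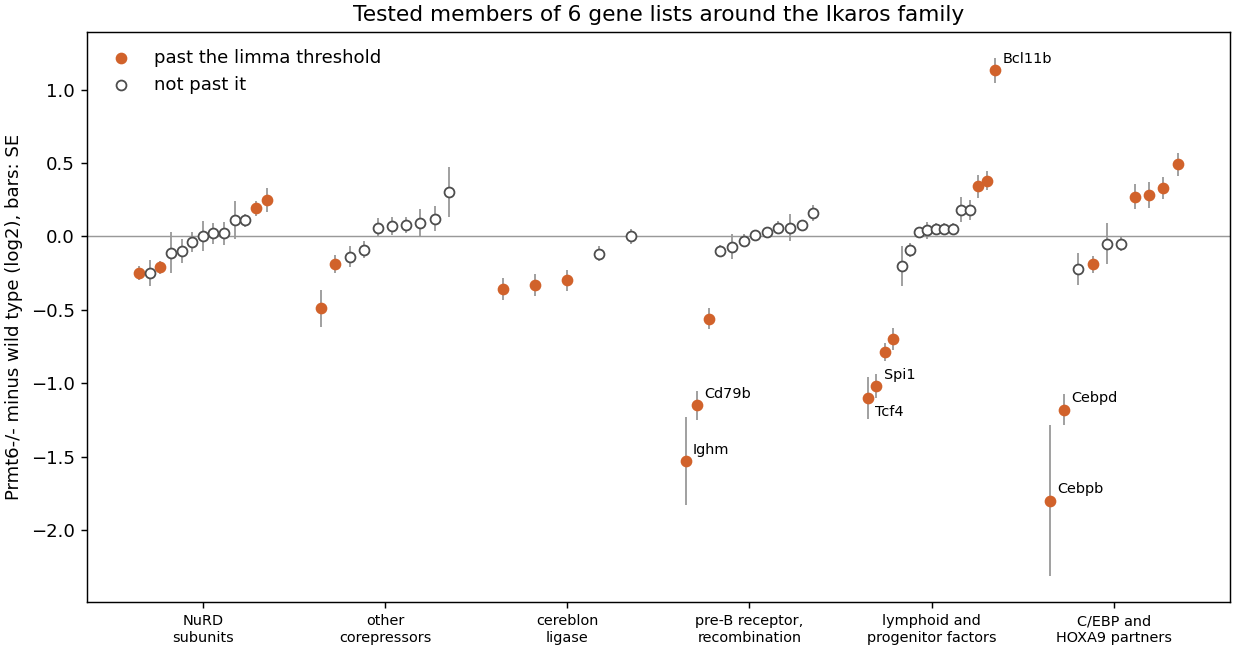
Difference between Prmt6-/- and wild type (y axis, log2, bars 1 SE of limma) for every tested gene of 6 lists around the Ikaros family (x axis), each list ordered by difference; filled points passed the limma threshold. The NuRD and cereblon ligase genes stay within 0.36 of 0, and Ighm, Cd79b, Spi1, Tcf4, Cebpb, Cebpd and Bcl11b differ by more than 1.

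The defining genes of L-GMP cells were present: over the 6 libraries Kit read 9.66 to 10.30, Cd34 10.36 to 10.56 and Fcgr3 13.18 to 13.39, and none of these passed. Of the 8 genes on that list 2 rose and 1 fell, beside 15.0% and 18.0% of all tested genes. Elane rose by 1.45 (0.81 after quantile normalization) and Ctsg by 0.51, and Fcgr2b differed by -0.88. The log2 of the list's summed level was 17.53 to 17.97 in the wild type and 18.41 to 18.57 in the knockout. The largest part of that sum was Elane, at 16.42 to 16.72 and 17.98 to 18.04. Among the genes that did not pass with all libraries, Mpo differed by -1.11, Kit by -0.29, Prtn3 by 0.21, Cd34 by 0.03 and Fcgr3 by 0.02. Mpo passed with the replicate block and without knockout library 3 (-1.73, limma adjusted p = 0.0115), and differed by -0.53 without knockout library 1. Prtn3 passed after quantile normalization, with intensity-dependent centring, with the replicate block, without wild-type library 3 and in the authors' deposited test (adjusted p = 0.0254). Because Helios and Aiolos are common in lymphocytes, their markers were read beside the family. Of 12 T cell genes 9 stayed under 5 in every library, with Cd3e at -1.97 throughout and Foxp3 at 1.38 to 1.44, and their sum was 7.60 to 7.67 in the wild type and 7.64 to 7.72 in the knockout; Cd3d rose by 0.44 and Lck fell by 0.28. All 8 natural killer cell genes stayed under 5, with sums of 5.12 to 5.16 and 5.10 to 5.17. Among the 8 B cell genes found, 6 stayed under 5. Their sum was lower in the knockout, at 9.00 to 9.63 against 10.34 to 10.68, a level made up by Ighm and Cd79b. Erythroid sums were 6.09 to 6.11 and 6.12 to 6.20, megakaryocyte sums 6.18 to 6.23 and 6.24 to 6.27, and those of plasmacytoid dendritic cells 9.28 to 9.37 and 8.92 to 9.13. Among these, the erythroid factor gene Klf1 rose by 0.22, a call that ended without wild-type library 1 or 3 or knockout library 2 (limma adjusted p from 0.0537 to 0.0602). In the dendritic cell list Bst2 fell by 0.33, and Cox6a2 by 0.15, a call that ended without each of the 6 libraries in turn (limma adjusted p from 0.0547 to 0.104). The call of Cox6a2 also ended with the replicate block (limma adjusted p = 0.059) and in the authors' deposited test. That test gives a log2 fold change of -0.89 (adjusted p = 0.1). The part of the B and dendritic cell genes in the Ikzf2 result was not tested. Low genes such as Ikzf3, Ikzf4 and Cox6a2 differed less here than in the authors' log2 fold changes. Near-equal sums of low marker genes are therefore not read as equal numbers of cells.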

How the data were processed

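Poly(A) RNA of 6 L-GMP samples was sequenced. Per the submitters' processing notes, Trim Galore, kallisto and HOMER were used on GRCm38, without versions; the annotation behind the counts was not stated. The authors deposited 1 table of log2 expression values normalized between libraries (from -1.97 to 18.04, transformation not named), with their own log2 fold changes and p-values from a test that is not named. Read depth is unknown, so no counting error is given. The 1 row without a gene name (0.00333% of rows) was left out. Another 25 rows hold a number in place of a symbol; they were kept, and 21 of them were tested.

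The deposited log2 values went into limma 3.58.1 (R 4.3.3), which compared knockout with wild type by a two-sided test with a mean-variance trend. Genes entered where 3 libraries or more had values of 1 or more. Adjustment by Benjamini and Hochberg ran over all 15454 such genes, with a threshold of 0.05, and the script was tested on simulated data. Differences are knockout minus wild type. Alternatives were other filters, no trend, quantile normalization, intensity-dependent centring, the replicate block, the authors' test and leaving out each library. The members and lists were chosen with earlier results of these data known. Named genes are the members, Prmt6, up to 4 members of each list with the smallest p, the 10 genes most like Ikzf2 and genes within 1 Mb of it; Pstk, Chd4, neighbours of Ikzf1, Hoxa9, Cebpa, Ddb1, further list and marker genes and the genes that set library 3 apart were named after their values were seen. Positions, overlaps and coding sequences come from GENCODE on GRCm38, and Fgfr2 was named for its overlap with Ikzf5. The C-terminal finger sequences of Ikzf3 and Ikzf4 and the level of a marker gene are not reported here.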

Additional observations from a re-analysis of the deposited data

How the results depend on the processing

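The number of genes past the limma threshold was 5102 and ranged from 3891 to 4598 without single libraries. Quantile normalization turned the majority, with 2825 higher and 2378 lower against 2324 and 2778. Without the low-value filter 1 of the other corepressor genes and 4 of the C/EBP and HOXA9-partner genes passed. With intensity-dependent centring 1 other corepressor gene passed. Without single libraries the counts were 2 to 4 for NuRD, 0 to 2 for the other corepressors, 3 for the cereblon ligase, 3 to 6 for the pre-B cell receptor and recombination genes, 7 to 8 for the lymphoid and progenitor factors and 3 to 6 for the C/EBP and HOXA9-partner genes. The differences were 0.25 to 0.36 for Ikzf1, -4.92 to -3.57 for Ikzf2, 0.04 to 0.09 for Ikzf3, -0.12 to -0.01 for Ikzf4 and -0.29 to -0.16 for Ikzf5. The authors' deposited log2 fold changes were 1.00 for Ikzf3 and -1.49 for Ikzf4. Both genes dropped out under the stricter filter and have no value there. The cause of these changes was not tested.

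The replicate numbers of the labels were not taken as pairs: deviations from the group means correlated at 0.095, 0.073 and 0.172 within numbers 1, 2 and 3, although every library correlated best with its own number. With the replicate block 5074 genes passed, 1 of the other corepressor genes passed instead of 2, and Ikzf5 passed at a difference of -0.23. Read depth is unknown, and what it limits could not be measured.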
